A study of Rattus norvegicus with 325 samples.

Results

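The dystrophin glycoprotein complex was followed through 7 genes chosen by symbol, namely Dmd (dystrophin), Utrn (utrophin), Sgca, Sgcb and Sgcd (alpha-, beta- and delta-sarcoglycan), Dag1 (dystroglycan) and Dtna (alpha-dystrobrevin). Of these 7 genes, 6 were matched, each to 1 line, among 17315 gene symbols, and Dtna was not analysed here. Whole pieces of 4 muscles, namely tibialis anterior, gastrocnemius, soleus and diaphragm, had been sequenced in bulk from male Sprague Dawley rats aged 6, 9, 12, 18, 21, 24 or 27 months, an outbred stock with no engineered allele or treatment given in the labels. The 4 muscles and 7 ages made 28 groups of 9 to 13 libraries, with 83 of diaphragm, 73 of gastrocnemius, 84 of soleus and 85 of tibialis anterior, and the 6-month group of each muscle served as its baseline. Tissues of 1 age were collected together, so age and collection day cannot be told apart.

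The complex spans the muscle fibre membrane. Dystrophin binds actin filaments inside the fibre and the cytoplasmic end of dystroglycan at the membrane, and the outer subunit of dystroglycan binds laminin in the basement membrane, so that the force of contraction is passed sideways to the matrix. The sarcoglycans are single-pass membrane proteins that assemble with one another and hold dystroglycan to dystrophin. Utrophin is an autosomal relative of dystrophin that in adult fibres is found mainly at the neuromuscular and myotendinous junctions. Loss of dystrophin, or of a sarcoglycan, causes muscular dystrophy.

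Total counts per library, in units of 1e6 reads, ran from 17.6 to 85.3, with a median of 31.9. Every library had at least 839 reads for each of the 6 genes, and all 6 passed the filter on low counts in every muscle. Fibre markers matched the muscle labels, in CPM (reads per 1e6 reads, here of the library total without TMM scaling). Myh7, the slow myosin heavy chain, ran from 25538 to 68406 CPM in soleus and from 201 to 7013 in tibialis anterior. Myh4, a fast one, ran from 4.53 to 414 in soleus and from 12496 to 88205 in tibialis anterior. In the labels, all gastrocnemius libraries carry a running-number series of their own, so differences between gastrocnemius and the other muscles cannot be told apart from it. The 12-month libraries of the other muscles share a further series, and that and age cannot be told apart for that group. Across the series, 6 libraries had a median correlation with their group under 0.97. Among them, replicate 11 of the 18-month diaphragm had the lowest Dmd, Sgcb and Sgcd levels of its group, at 5.37, 7.30 and 5.52 log2 CPM. The only libraries of this kind in the 6- and 27-month groups were replicate 4 of the 6-month gastrocnemius and replicate 9 of the 27-month tibialis anterior. For these muscles, changes without the libraries that stood apart are given only for Dmd in both and for Sgcb and Utrn in tibialis anterior. Levels below given as log2 CPM are of TMM-scaled libraries, on 1 scale for all libraries. Changes with age come from a separate fit for each muscle and so differ slightly from the difference of 2 mean levels. A gene is called where its adjusted p is under 0.05 and its change exceeds 1.5-fold, and is said to pass where only the adjusted p is met. Since whole muscle was sequenced, fewer cells of a type and less RNA per cell cannot be told apart.

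For orientation, the 250 bases before the annotated start are given for the 3 genes on which most of the results turn, dystrophin, its relative utrophin, and Sgcb, the one sarcoglycan that was called. They come from RefSeq on build GRCr8, which is not the build the counts were made on, and run 5′ to 3′ on the strand of the gene. Dmd lies at chrX:51205836-51206085 on the plus strand, Utrn at chr1:9044488-9044737 on the minus strand and Sgcb at chr14:34917413-34917662 on the plus strand. Capitals mark the E-box CANNTG, the motif bound by myogenic transcription factors, searched on both strands.
Dmd: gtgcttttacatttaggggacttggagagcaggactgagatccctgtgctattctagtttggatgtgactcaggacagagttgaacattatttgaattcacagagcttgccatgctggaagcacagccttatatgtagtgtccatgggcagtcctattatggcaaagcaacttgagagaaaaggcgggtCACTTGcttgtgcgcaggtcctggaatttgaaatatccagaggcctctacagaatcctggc
Utrn: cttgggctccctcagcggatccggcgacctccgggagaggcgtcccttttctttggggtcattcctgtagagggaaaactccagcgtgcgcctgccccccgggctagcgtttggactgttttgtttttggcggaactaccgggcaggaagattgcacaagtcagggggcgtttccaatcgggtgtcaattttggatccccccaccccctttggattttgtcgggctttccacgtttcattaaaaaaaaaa
Sgcb: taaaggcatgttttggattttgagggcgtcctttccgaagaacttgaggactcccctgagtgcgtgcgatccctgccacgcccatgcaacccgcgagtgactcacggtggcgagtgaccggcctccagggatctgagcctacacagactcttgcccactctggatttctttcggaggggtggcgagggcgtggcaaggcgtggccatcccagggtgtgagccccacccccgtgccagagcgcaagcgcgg
The Dmd window held 1 E-box, and those of Utrn and Sgcb held 0 matches to these letters. The windows of Sgca and Sgcd, not shown, held 2 and 1. An E-box of any letters was present in 65.5% of 33469 windows of this length, and the form CAGCTG in 12.0%. In Sgca, 1 of the matches had the form CAGCTG. The letters TTCCGG, the N-box of synaptic genes, were in 12.6% of all windows and in 0 of these 5 genes' windows. RefSeq listed 3 Dmd starts, of which the first, given here, is the start farthest upstream, and the counts per gene sum over all Dmd transcripts.

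Dystrophin mRNA rose with age in the 3 limb muscles, while its change in diaphragm did not pass. With a score of the spread between libraries as a covariate (given with the tests) the gastrocnemius rise did not pass and diaphragm did. In gastrocnemius, Dmd stood between 4.90 and 6.31 log2 CPM at 6 months (median 5.87, n = 10) and between 6.90 and 7.74 at 27 months (median 7.30, n = 11). All 11 old libraries lay above the highest young one. In soleus the levels ran from 6.69 to 6.98 (median 6.86, n = 12) at 6 months and from 7.25 to 7.99 (median 7.58, n = 12) at 27 months. Again the groups did not overlap, with 12 of 12 old libraries above the highest young one. In tibialis anterior Dmd ran from 6.28 to 6.46 (median 6.37, n = 12) at 6 months and from 6.38 to 7.78 (median 7.04, n = 12) at 27 months. Here 11 of 12 old libraries were above the young range, and the old group was wide, with a standard deviation (SD) of 0.47 against 0.06 in the young. In diaphragm the 6-month range was 6.45 to 6.74 (median 6.56, n = 12) and the 27-month range 5.89 to 7.24 (median 6.47, n = 12). The old diaphragms spread to both sides of the young ones, 2 above and 6 below.

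**Figure D1:**
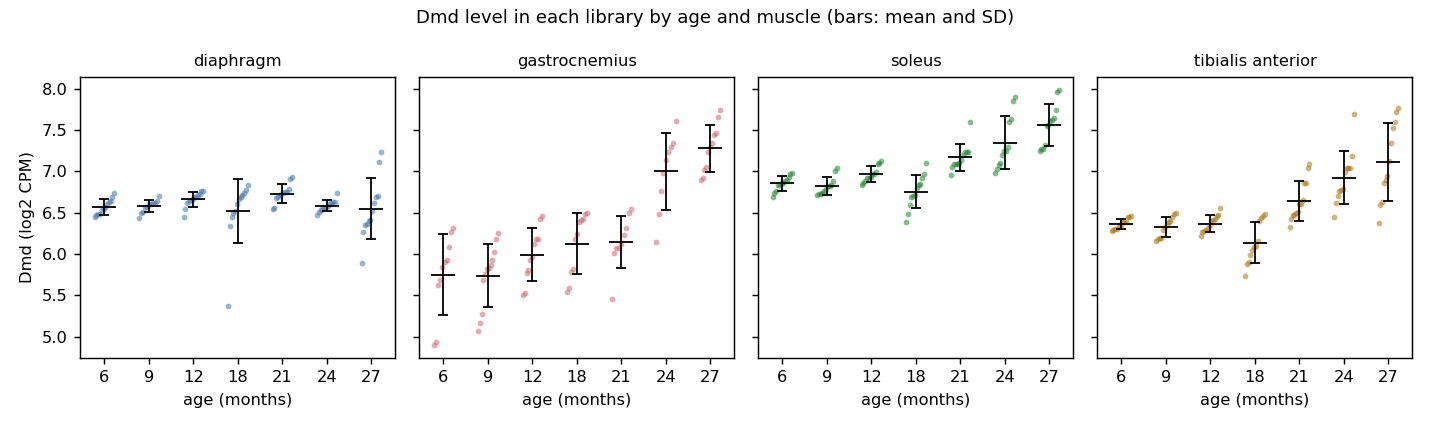
Dmd level (log2 CPM, vertical axis) in each library by age in months (horizontal axis), with 1 panel for each muscle; points are libraries and bars the mean and SD of each group. Group means in gastrocnemius go from 5.75 at 6 months to 7.0 at 24 and 7.28 at 27 months, while diaphragm means stay between 6.52 and 6.73.

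By limma-voom, Dmd at 27 against 6 months rose by 1.55 on the log2 scale in gastrocnemius (standard error, SE, 0.17, adjusted p = 2.5e-12, 2.93-fold). The rise was 0.73 in soleus (SE 0.08, adjusted p = 5.0e-13, 1.66-fold) and 0.76 in tibialis anterior (SE 0.10, adjusted p = 8.4e-10, 1.69-fold). In diaphragm the change was -0.06 (SE 0.09, adjusted p = 0.609), with a 95% interval from -0.24 to 0.12. Without the libraries that stood apart, the limma rise was 1.45 in gastrocnemius and 0.79 in tibialis anterior. The gastrocnemius groups also differed along the leading axis of spread between libraries of 1 age (the first principal component of other genes, scored for gastrocnemius with the weights of tibialis anterior and scaled to an SD of 1), on which the 6-month libraries had a mean score of -0.88 (SD 0.11) and the 27-month libraries 1.58 (SD 0.68). With that score as a covariate, chosen after seeing the data, the gastrocnemius change was 0.44 (limma adjusted p = 0.396), while diaphragm turned from -0.06 to 0.33 (adjusted p = 3.7e-07), soleus was at 0.86 and tibialis anterior at 1.00. The Dmd changes of gastrocnemius and of diaphragm therefore each depended on whether that score was in the fit of that muscle. The other muscles were scored with the weights of gastrocnemius, so the score was not the same measure in every muscle. The difference between muscles was not tested with it.

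The rise came late. Against 6 months, Dmd had not passed at 9, 12 or 18 months in any muscle. In soleus it passed at 21 months (0.32, limma adjusted p = 0.0021) and 24 months (0.51, adjusted p = 3.0e-07), and in tibialis anterior likewise (0.29, adjusted p = 0.0244, then 0.56, adjusted p = 5.0e-06). In gastrocnemius the first age to pass was 24 months, at 1.27 (SE 0.18, adjusted p = 7.9e-09), where it was already called. Its earlier values there were 0.25 at 12, 0.37 at 18 and 0.40 at 21 months (limma adjusted p = 0.466, 0.131 and 0.106). The 21-month value was larger than those of soleus and tibialis anterior, but with a larger SE (0.18 against 0.08 and 0.10). A later start in gastrocnemius is therefore not shown. The logistic curves fitted to level over age had their inflection at 22.75 months in gastrocnemius, 21.75 in soleus and 21.0 in tibialis anterior. As only an inflection after month 21 was classed as late, the tibialis anterior curve was classed as mid and the others as late.

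Utrophin mRNA moved little over the lifespan on this scale. Its group means stayed within 0.16 log2 CPM of one another in every muscle. In gastrocnemius Utrn ran from 7.08 to 7.34 (median 7.18) at 6 months and from 6.97 to 7.25 (median 7.11) at 27 months. The limma change of -0.07 there did not pass (SE 0.04, adjusted p = 0.0746). In soleus (0.03, adjusted p = 0.514) and tibialis anterior (-0.01, adjusted p = 0.891) it did not pass either. The 95% intervals, not adjusted for the number of genes, were -0.14 to -0.00163 in gastrocnemius, -0.04 to 0.09 in soleus and -0.07 to 0.06 in tibialis anterior. Diaphragm was the 1 muscle where Utrn passed: it ran from 7.86 to 8.21 (median 7.94) at 6 months and from 7.72 to 7.96 (median 7.81) at 27 months. It fell there by 0.19 (SE 0.04, limma adjusted p = 0.000255), with 8 of 12 old libraries below the young range and all 12 below the young mean, but was at -0.09 and did not pass with the leading-axis covariate (adjusted p = 0.118). At earlier ages Utrn passed at 18 months in diaphragm (-0.15), soleus (-0.11) and tibialis anterior (-0.10), with limma adjusted p of 0.00965, 0.00557 and 0.0143, and in gastrocnemius at 21 (-0.13, adjusted p = 0.0103) and 24 months (-0.16, adjusted p = 0.000341). Scaling by total count, which raised the median change of all genes by 0.28 in gastrocnemius, 0.15 in soleus, 0.32 in tibialis anterior and 0.04 in diaphragm, gave Utrn 0.21, 0.17, 0.31 and -0.15, all of which passed, so the direction in the limb muscles depended on the scaling. The gastrocnemius value also passed without replicate 0, 7 or 10 of 27 months or replicate 4, 7 or 8 of 6 months, at -0.08 to -0.09 (limma adjusted p from 0.0313 to 0.0481).

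Measured within each library, and so free of the scaling between libraries, the log2 ratio of Utrn to Dmd reads fell with age in the limb muscles by description, without a test. Reads were not divided by transcript length, so only the change of this ratio carries meaning. In gastrocnemius its mean went from 1.45 (SD 0.52) at 6 months to -0.17 (SD 0.24) at 27 months, a change of -1.62, and 11 of 11 old libraries lay below every young one. Soleus went from 0.78 (SD 0.12) to 0.08 (SD 0.24), again with 12 of 12 below. Tibialis anterior went from 0.98 (SD 0.10) to 0.22 (SD 0.46), with 10 of 12 below. Diaphragm went from 1.40 (SD 0.15) to 1.27 (SD 0.40), with 3 of 12 below the young range and 1 above it.

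**Figure D2:**
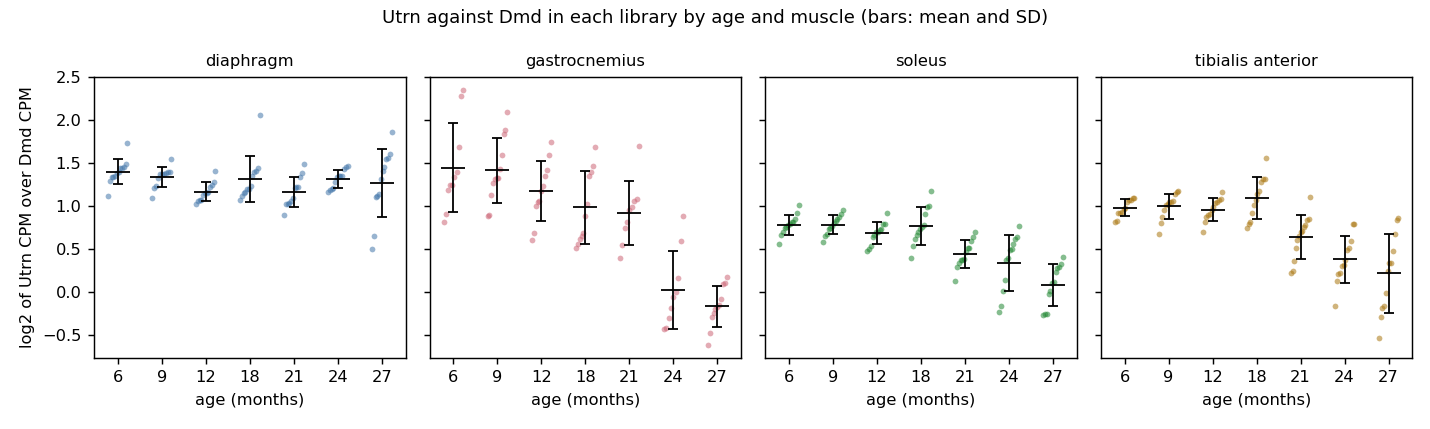
Log2 ratio of Utrn to Dmd reads in each library (vertical axis) against age in months (horizontal axis), 1 panel per muscle, with the mean and SD of each group. Means at 27 months lie 1.62, 0.70 and 0.76 below those at 6 months in gastrocnemius, soleus and tibialis anterior, and 0.13 below in diaphragm.

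Beta-sarcoglycan moved the other way, falling in all 4 muscles, with the steepest fall in tibialis anterior. There Sgcb ran from 9.38 to 9.60 log2 CPM at 6 months (median 9.52) and from 8.03 to 9.13 at 27 months (median 8.27), and 12 of 12 old libraries were below the lowest young one. In diaphragm it ran from 8.65 to 8.93 (median 8.83) and then from 7.89 to 8.79 (median 8.31), with 10 of 12 old libraries below the young range. In soleus it ran from 8.47 to 8.77 (median 8.59) and then from 7.77 to 8.60 (median 8.23), again with 10 of 12 below. In gastrocnemius the young range was wide, from 8.09 to 9.17 (median 8.89), and enclosed the old one, from 8.13 to 8.71 (median 8.44). All 11 old gastrocnemius libraries were nevertheless below the young mean.

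**Figure D3:**
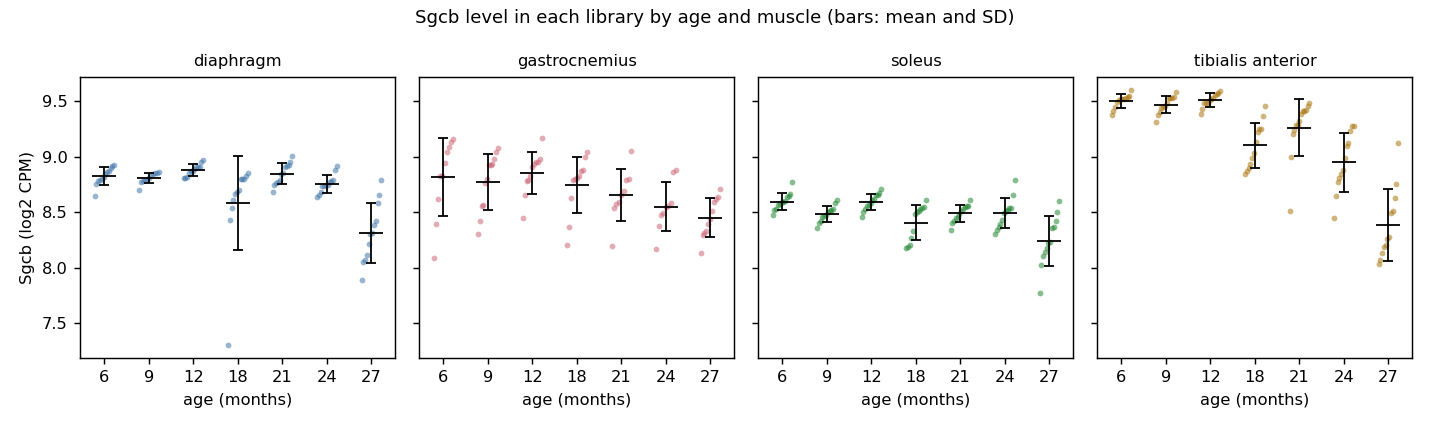
Sgcb level (log2 CPM, vertical axis) in each library by age in months (horizontal axis), 1 panel per muscle, with the mean and SD of each group. In tibialis anterior the means go from 9.50 at 6 months to 8.95 at 24 and 8.39 at 27 months.

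The limma change of Sgcb at 27 against 6 months was -1.10 in tibialis anterior (SE 0.09, adjusted p = 1.1e-19), a fall of 2.14-fold, and -1.17 without the libraries that stood apart. Diaphragm fell by 0.55 (SE 0.08, adjusted p = 1.1e-07, 1.47-fold), just under the fold minimum. Leaving out replicate 4 or replicate 5 of its 27-month group gave -0.60 and -0.59, past that minimum. With the leading-axis score as a covariate the diaphragm change shrank to -0.16, which still passed. Gastrocnemius fell by 0.36 (SE 0.11, adjusted p = 0.00415) and soleus by 0.34 (SE 0.05, adjusted p = 9.3e-08). The gastrocnemius fall did not pass with total-count scaling (-0.07, limma adjusted p = 0.593) or with the leading-axis score as a covariate (-0.05, adjusted p = 0.945). In tibialis anterior Sgcb was already lower at 18 months (-0.39, limma adjusted p = 0.000271), 21 months (-0.22, adjusted p = 0.0435) and 24 months (-0.54, adjusted p = 2.6e-07). The 18-month libraries there had a mean leading-axis score of -1.40 (SD 1.20), against 0.28 (SD 0.26) at 6 and 0.44 (SD 0.25) at 21 months. That score correlated with Sgcb within ages at 0.41 in this muscle, and its part in the 18-month value was not tested. Sgcb also passed at 18 months in diaphragm (-0.25, limma adjusted p = 0.0243) and soleus (-0.19, adjusted p = 0.00504). It did not pass at 21 or 24 months in those muscles. Their mean scores at 18 months were -0.60 and -1.33, and the part of the score was not tested there either. In gastrocnemius Sgcb first passed at 24 months (-0.26, adjusted p = 0.0486). The logistic curve of Sgcb in tibialis anterior had its inflection at 27.0 months. That is the last age sampled and the upper limit of the search, so the fit cannot place the turn. The mean level was still falling between the last ages, from 8.95 log2 CPM at 24 months to 8.39 at 27 months.

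Delta-sarcoglycan passed in all 4 muscles, with a rise in 1 and a fall in the others. At 27 months Sgcd rose in gastrocnemius by 0.43 (SE 0.13, limma adjusted p = 0.00237). It fell in the other muscles, by 0.33 in tibialis anterior (SE 0.07, adjusted p = 4.9e-05), 0.25 in diaphragm (SE 0.07, adjusted p = 0.00365) and 0.17 in soleus (SE 0.05, adjusted p = 0.00381). None of these reached 1.5-fold. Gastrocnemius Sgcd ran from 5.80 to 6.85 (median 6.60) at 6 months and from 6.62 to 7.44 (median 6.84) at 27 months, so the groups overlapped, with 5 of 11 old libraries above the young range. Tibialis anterior ran from 6.98 to 7.17 (median 7.03) and then from 6.17 to 7.5 (median 6.65), with 9 of 12 old libraries below the young range and 1 above it. The leading-axis score as a covariate gave 0.26 in gastrocnemius (limma adjusted p = 0.606), -0.09 in soleus (adjusted p = 0.0953) and 0.07 in diaphragm (adjusted p = 0.127), and total-count scaling gave -0.02 in soleus and -0.01 in tibialis anterior, none of which passed.

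Sgcb reads declined relative to Sgcd reads, so that the ratio of the 2 sarcoglycans separated young from old libraries in 3 of the 4 muscles, as a description without a test. The log2 ratio of Sgcb to Sgcd within a library went from 2.46 (SD 0.06) to 1.68 (SD 0.26) in tibialis anterior, from 2.35 (SD 0.09) to 1.56 (SD 0.19) in gastrocnemius and from 2.14 (SD 0.06) to 1.83 (SD 0.07) in diaphragm. In each of these muscles every 27-month library was below every 6-month one. In soleus it went from 1.79 (SD 0.09) to 1.62 (SD 0.16), and 7 of 12 old libraries were below the young range. The ratio of Sgcb to Dmd separated the same ages in all 4 muscles, diaphragm included, where it went from 2.26 (SD 0.09) to 1.77 (SD 0.23). Sgcd to Dmd did so in the limb muscles only, and Sgca to Dmd in gastrocnemius only. Sgcb to Sgca did so in tibialis anterior and diaphragm, but in gastrocnemius 0 of 11 old libraries were below the young range. Sgcd to Sgca overlapped in every muscle. The share of all genes or gene pairs that separate these ages was not computed.

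Alpha-sarcoglycan, which is made almost only in striated muscle, passed at 27 months in 1 muscle. That was gastrocnemius, where Sgca ran from 7.41 to 8.05 (median 7.62) at 6 months and from 7.33 to 7.54 (median 7.48) at 27 months. The limma change was -0.18 (SE 0.07, adjusted p = 0.0127), and all 11 old libraries were below the young mean, but it turned to 0.10 with total-count scaling and to 0.12 with the leading-axis covariate. The changes were 0.12 in diaphragm (adjusted p = 0.0746), 0.05 in soleus (adjusted p = 0.409) and -0.01 in tibialis anterior (adjusted p = 0.80). In diaphragm, leaving out replicate 6 of 27 months, or replicate 8 or 10 of 6 months, gave 0.14, 0.13 and 0.13 and passed (limma adjusted p = 0.0333, 0.0451 and 0.049), as did the fit without the libraries that stood apart (0.13, adjusted p = 0.00769). At 24 months Sgca in gastrocnemius was at -0.32 against 6 months (limma adjusted p = 7.0e-05), and in soleus it was higher at 18 months (0.16, adjusted p = 0.00741) and 21 months (0.13, adjusted p = 0.045). The summed share of 5 ribosomal RNA genes, a sign of how well these were removed, correlated within ages with Sgca at 0.55 both in diaphragm (83 libraries) and in gastrocnemius (73 libraries), and its part in the Sgca values was not tested. The same share correlated with Sgcb at -0.55 and -0.51, Sgcd at -0.47 and -0.40 and Dmd at -0.41 and -0.39 in those muscles, where its part was not tested either. Its group medians were 0.989% to 2.59% in gastrocnemius and 0.229% to 0.493% in the other muscles, so this share and gastrocnemius cannot be told apart in comparisons between muscles.

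Dystroglycan, the laminin receptor at the centre of the complex, rose modestly in 3 muscles. In soleus Dag1 ran from 9.67 to 9.83 log2 CPM (median 9.73) at 6 months and from 9.76 to 10.28 (median 9.99) at 27 months, with 10 of 12 old libraries above the young range. The limma rise there was 0.27 (SE 0.04, adjusted p = 8.1e-10). It passed in soleus already at 12 months (0.17, adjusted p = 0.00339), and the trend over all ages was linear, at 0.0155 log2 units per month. At 12 months age cannot be told apart from the running-number series of those libraries. The change was 0.11 at 18 months (limma adjusted p = 0.0197). Diaphragm rose by 0.13 (SE 0.03, limma adjusted p = 0.00106), with 9 of 12 old libraries above the young range, and tibialis anterior by 0.10 (SE 0.03, adjusted p = 0.00146). With the leading-axis covariate these were 0.07 (adjusted p = 0.105) and 0.06 (adjusted p = 0.0402), and with total-count scaling 0.17 and 0.42. Gastrocnemius Dag1 was at -0.09 (SE 0.06, adjusted p = 0.203).

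Counted over the complex, 4 of 24 member and muscle pairs were called at 27 months and 16 passed. Diaphragm had 0 called members, against 3.27% of all genes called higher and 4.25% called lower there. At an unadjusted p under 0.05, 5 of the 6 members differed in diaphragm by limma, where 51.6% of all genes did, and edgeR and DESeq2 also called 0. Gastrocnemius had 1 member called higher, Dmd, against 15.1% of genes higher and 7.76% lower. Soleus likewise had Dmd alone called higher, against 9.21% higher and 5.78% lower. Tibialis anterior had Dmd called higher and Sgcb lower, against 17.2% and 10.4%. By the adjusted p alone 1 member rose and 3 fell in diaphragm, where 20.3% of genes rose and 24.7% fell. In each limb muscle 2 rose and 2 fell, against 33.2% and 28.9% in gastrocnemius, 27.4% and 26.4% in soleus and 37.7% and 36.5% in tibialis anterior. The median change of the 6 members was -0.13 in diaphragm, -0.08 in gastrocnemius, 0.04 in soleus and -0.01 in tibialis anterior, beside 0.00, 0.04, 0.02 and 0.02 for all genes tested.

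**Figure D4:**
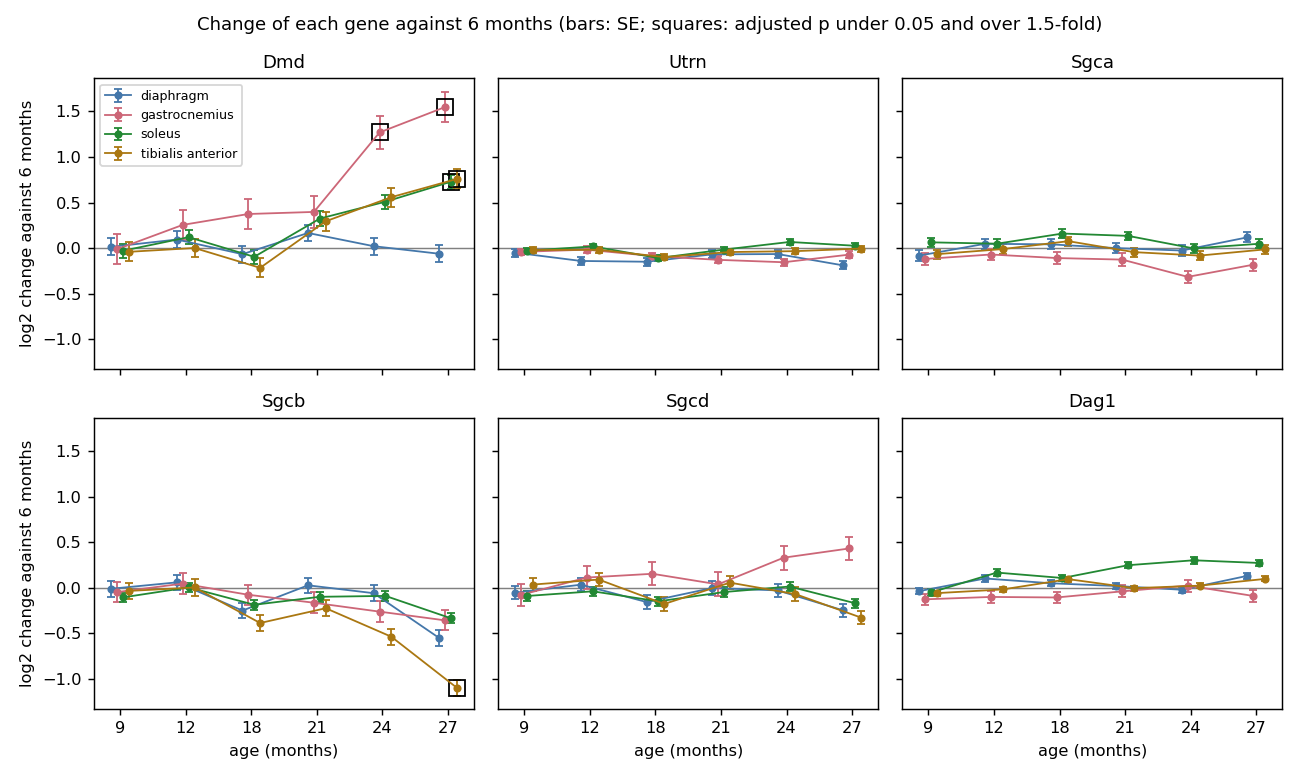
Log2 change against 6 months (vertical axis) of each member at each later age in months (horizontal axis), 1 panel per gene and 1 line per muscle, with SE bars and squares where the gene was called. Squares mark Dmd in the 3 limb muscles at 27 months, from 0.73 to 1.55, Dmd in gastrocnemius at 24 months, and Sgcb in tibialis anterior at -1.10.

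Before 27 months, 1 of 120 comparisons was called, Dmd in gastrocnemius at 24 months. The count was 2 with edgeR, 2 with DESeq2 and 3 with total-count scaling. The shares of all genes called at 9, 12, 18, 21 and 24 months were 0.108%, 0.532%, 2.25%, 1.68% and 2.68% in diaphragm and 0.143%, 0.885%, 4.32%, 5.81% and 18.8% in gastrocnemius. In soleus they were 0.123%, 0.353%, 2.84%, 2.61% and 6.51%, and in tibialis anterior 0.00851%, 0.196%, 5.45%, 6.47% and 14.5%. With a trend over age required as well as a call at any age, 0 members were age-related in diaphragm, 1 in gastrocnemius (Dmd), 1 in soleus (Dmd) and 2 in tibialis anterior (Dmd and Sgcb), against 6.71%, 23.4%, 12.6% and 26.7% of genes. Without the call, 13 of the 24 pairs had a linear or logistic trend, among them Dag1 in soleus and tibialis anterior, and Sgcb in every muscle. These were 1 of 6 members in diaphragm, 5 in gastrocnemius, 3 in soleus and 4 in tibialis anterior, against 29.6%, 55.1%, 40.2% and 64.9% of genes with a trend.

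The differences between muscles were tested directly, in a joint fit of all 28 groups, for 6 pairs of muscles and 6 members. The joint fit treats libraries of different muscles as independent, since the labels do not say which came from 1 animal. The change of Dmd from 6 to 27 months differed in 5 of the 6 pairs. Gastrocnemius exceeded diaphragm by 1.56 (SE 0.16, limma adjusted p = 2.9e-17), soleus exceeded diaphragm by 0.73 (SE 0.15, adjusted p = 2.9e-05) and tibialis anterior exceeded it by 0.77 (SE 0.15, adjusted p = 4.6e-06). The gastrocnemius rise was also the steeper against soleus, the difference of soleus minus gastrocnemius being -0.83 (adjusted p = 4.8e-06), and against tibialis anterior, at -0.79 (adjusted p = 2.4e-05). Tibialis anterior minus soleus was 0.04 (adjusted p = 0.865), with a 95% interval from -0.26 to 0.34.

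For Sgcb the fall in tibialis anterior exceeded that in each other muscle, with differences of -0.60 against diaphragm (SE 0.11, limma adjusted p = 1.9e-06), -0.75 against gastrocnemius (SE 0.12, adjusted p = 7.9e-08) and -0.76 against soleus (SE 0.11, adjusted p = 2.3e-09). The other 3 pairs of muscles were not called for Sgcb and lay between 0.01 and 0.16. For Sgcd it was gastrocnemius that stood apart, by 0.63 from diaphragm (SE 0.12, adjusted p = 5.6e-07), with soleus minus gastrocnemius at -0.61 (adjusted p = 3.0e-06) and tibialis anterior minus gastrocnemius at -0.76 (adjusted p = 2.6e-08). No pair was called for Utrn, Sgca or Dag1. In all, 11 of 36 comparisons of change were called, 2 for gastrocnemius minus diaphragm, 1 for soleus minus diaphragm, 2 for tibialis anterior minus diaphragm, 2 for soleus minus gastrocnemius, 3 for tibialis anterior minus gastrocnemius and 1 for tibialis anterior minus soleus. The matching shares of all genes were 21.6%, 11.9%, 20.3%, 14.5%, 7.32% and 15.8%. With sample quality weights 7 of the 11 were called, the 3 of Sgcd and Sgcb in tibialis anterior minus diaphragm dropping below 1.5-fold.

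In young rats the muscles already differed in these genes. Dmd was lowest in gastrocnemius at 6 months, where gastrocnemius minus diaphragm was -0.83 (SE 0.11, limma adjusted p = 1.5e-11), and was highest in soleus, 1.11 above gastrocnemius (SE 0.11, adjusted p = 6.2e-19). Diaphragm and tibialis anterior lay between. Tibialis anterior minus diaphragm was -0.21 and did not pass (limma adjusted p = 0.0771), with a 95% interval from -0.42 to 0.0062. By 27 months the order of the Dmd means was soleus 7.57, gastrocnemius 7.28, tibialis anterior 7.12 and diaphragm 6.55, so that gastrocnemius was no longer the lowest, and that order was not tested. Utrn was highest in diaphragm, with gastrocnemius minus diaphragm at -0.78 (limma adjusted p = 5.9e-62) and tibialis anterior minus diaphragm at -0.63 (adjusted p = 3.2e-49). Sgca was higher in the fast limb muscles, its means being 7.64 in gastrocnemius and 7.39 in tibialis anterior against 6.74 in soleus and 6.68 in diaphragm. Soleus minus diaphragm did not pass for Sgca (0.06, limma adjusted p = 0.340), with a 95% interval from -0.05 to 0.17. Sgcb was highest in tibialis anterior, the muscle where it later fell most, by 0.68 above diaphragm (limma adjusted p = 1.7e-14), 0.68 above gastrocnemius (adjusted p = 2.6e-13) and 0.91 above soleus (adjusted p = 1.1e-23). Neither Dag1 nor Sgcd was called in any pair, although Dag1 in soleus exceeded diaphragm by 0.50 (adjusted p = 3.4e-26). Of 36 level comparisons 12 were called, 3 for gastrocnemius minus diaphragm, 0 for soleus minus diaphragm, 3 for tibialis anterior minus diaphragm, 2 for soleus minus gastrocnemius, 2 for tibialis anterior minus gastrocnemius and 2 for tibialis anterior minus soleus. The matching shares of all genes were 37.3%, 23.9%, 35.1%, 45.4%, 17.3% and 42.9%.

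Among libraries of the same muscle and age, some members varied together. Over all libraries, after removing group means, Pearson's r was 0.80 between Sgcb and Sgcd, 0.63 between Dmd and Sgcd, 0.40 between Dmd and Sgcb, and -0.44 between Dmd and Sgca. The same r for Sgcb and Sgcd was between 0.66 in soleus and 0.92 in diaphragm. Utrn had its largest r, -0.32, with Sgca, and lay between -0.10 and 0.10 with the rest. These values share library, depth and scaling, and they moved with the leading axis, whose score correlated within ages in diaphragm with Sgcb at 0.94, Sgcd at 0.88, Dmd at 0.85 and Sgca at -0.71. The mean axis score itself shifted with age, in diaphragm from 0.28 (SD 0.14) at 6 months to -1.29 (SD 1.07) at 27 months, and its part in the diaphragm values was not tested beyond the covariate fit, in which diaphragm Dmd was 0.33 (limma adjusted p = 3.7e-07) and Sgcb -0.16 (adjusted p = 4.8e-05). Over the 28 group means, after each muscle's mean was removed, r was 0.46 between Sgcb and Sgcd and -0.55 between Sgcb and Dmd. Within ages the latter pair had r of 0.83 in diaphragm, 0.60 in gastrocnemius and 0.26 in soleus but -0.16 in tibialis anterior.

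The genes whose age pattern over those 28 group means was most like that of Dmd, out of 8168 compared, were Acsl3, a long-chain acyl-CoA synthetase (r = 0.97), Fgf7, a fibroblast growth factor (r = 0.96), and Wbp5 (r = 0.96). For Sgcb they were Phf20l1, Wwp1, a ubiquitin ligase, and Erlec1, a lectin of the endoplasmic reticulum (r = 0.98 each). For Utrn the closest were Elovl5, a fatty acid elongase (r = 0.82), Rin2 (0.77) and Slc36a4 (0.76), and for Sgca Cacfd1 (0.90), Pcif1 (0.89) and Lrp10 (0.89). Sgcd was near to Pggt1b (0.92) and Akap9 (0.90), and Dag1 to Tbc1d5 (0.85), Chd8 (0.80) and Pigu (0.80). No member was among the 3 genes nearest to another member.

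The further genes of the complex are mainly cytoplasmic partners of dystrophin, and several fell in gastrocnemius and tibialis anterior. Of 13 listed further genes of the complex, 11 were tested in gastrocnemius and 6 were called lower and 0 higher, with a median change of -0.66. In tibialis anterior 4 of 11 were called lower and 1 higher (median -0.30), in soleus 1 of 10 higher (median -0.09), and in diaphragm 0 of 11 (median -0.14). Of all genes, 7.76% were called lower in gastrocnemius, 10.4% in tibialis anterior, 5.78% in soleus and 4.25% in diaphragm. Those called higher were 15.1%, 17.2%, 9.21% and 3.27%. Nos1, the neuronal nitric oxide synthase that the complex holds at the membrane, fell by 1.49 in gastrocnemius (SE 0.13, limma adjusted p = 2.2e-15), from 6.12 to 6.94 log2 CPM (median 6.46) at 6 months to 4.09 to 5.55 (median 5.14) at 27 months. The Nos1 groups did not overlap in gastrocnemius. It fell by 0.81 in tibialis anterior (SE 0.12, adjusted p = 5.7e-09) and by 0.58 in soleus (adjusted p = 0.00173), and was 0.07 in diaphragm (adjusted p = 0.462). Sntb1, beta-1-syntrophin, an adaptor that docks signalling proteins on dystrophin, went in opposite directions. It fell by 1.45 in tibialis anterior (SE 0.13, limma adjusted p = 2.2e-16) and 1.39 in gastrocnemius (SE 0.17, adjusted p = 1.2e-10) but rose by 1.23 in soleus (SE 0.17, adjusted p = 1.5e-09). Cav3, the caveolin of muscle, fell by 0.70 in gastrocnemius and 0.93 in tibialis anterior. Drp2 (-1.04) and Sntg2 (-1.25) were also called in gastrocnemius and Sntg2 (-0.61) in tibialis anterior, both genes at low level, with Sntg2 below 0 log2 CPM. Dtnb, beta-dystrobrevin, rose in tibialis anterior by 0.61 (SE 0.16, adjusted p = 0.000666).

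**Figure D5:**
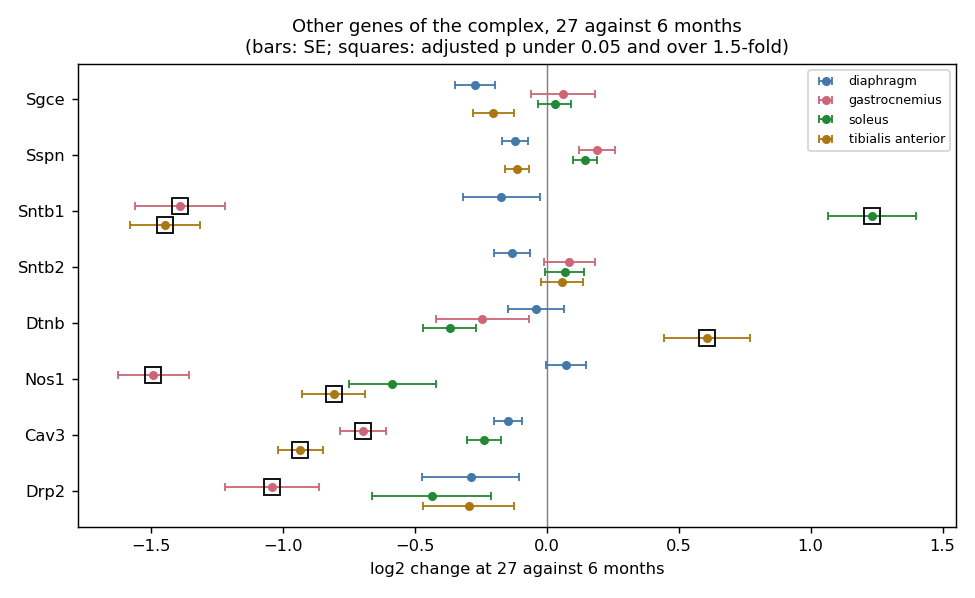
Log2 change at 27 against 6 months (horizontal axis) of 8 further genes of the complex (vertical axis) in each muscle by colour, with SE bars and squares where the gene was called. Sntb1 is marked at -1.39 and -1.45 in gastrocnemius and tibialis anterior and at 1.23 in soleus, and diaphragm has no square.

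On the matrix side the list held 11 ligands and integrins, of which Lama2, the main laminin chain of the muscle basement membrane, Lamb1 and Hspg2 were not analysed here. Of the other 8, 3 were called higher in gastrocnemius, 1 in soleus, 2 in tibialis anterior and 0 in diaphragm, and 0 were called lower. Of all genes, 15.1%, 9.21%, 17.2% and 3.27% were called higher in those muscles, and 7.76%, 5.78%, 10.4% and 4.25% lower. By the adjusted p alone 3 rose and 3 fell in gastrocnemius, 2 and 1 in soleus, 4 and 1 in tibialis anterior, and 2 and 4 in diaphragm. The matching shares of all genes were 33.2% and 28.9%, 27.4% and 26.4%, 37.7% and 36.5%, and 20.3% and 24.7%. Lama5, the laminin alpha-5 chain, rose by 2.32 in tibialis anterior (SE 0.15, limma adjusted p = 3.7e-24), 1.73 in gastrocnemius (SE 0.15, adjusted p = 1.7e-16) and 1.23 in soleus (SE 0.11, adjusted p = 1.2e-15). In tibialis anterior it ran from 5.57 to 5.84 log2 CPM (median 5.69) at 6 months and from 6.84 to 8.60 (median 8.00) at 27 months, with no overlap. Bgn, biglycan, a proteoglycan that binds dystroglycan and sarcoglycans, rose by 1.72 in tibialis anterior (adjusted p = 1.7e-16) and 1.00 in gastrocnemius (adjusted p = 2.6e-12), and Itgb1, the integrin beta-1 chain, by 0.66 in gastrocnemius.

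Of 17 enzymes that build the laminin-binding sugar of dystroglycan, 1 was called higher in each limb muscle, Pomgnt1, at 0.60 in gastrocnemius, 0.62 in soleus and 0.81 in tibialis anterior (limma adjusted p = 5.1e-10, 1.2e-12 and 3.8e-21). In soleus and in tibialis anterior 2 were called lower, among them B3galnt2 in both (-0.66 and -0.78), with Rxylt1 also at -0.78 in tibialis anterior. In gastrocnemius 0 and in diaphragm 0 of these enzymes were called lower. Beside these counts and those of the next list, 15.1% of all genes were called higher in gastrocnemius, 9.21% in soleus and 17.2% in tibialis anterior. Called lower there were 7.76%, 5.78% and 10.4%. Of 10 listed genes of the costamere, all tested in diaphragm and 9 in each limb muscle, the rib-like lattice that links the membrane to the sarcomere, 2 were called higher in each limb muscle, 1 lower in soleus and 2 lower in tibialis anterior. Sync, syncoilin, rose by 0.74 in gastrocnemius and 0.77 in soleus, Flnc, filamin C, a ligand of the sarcoglycans, rose by 0.61 in tibialis anterior, Synm, synemin, fell by 0.70 in soleus and 1.06 in tibialis anterior, and Ank3, ankyrin-G, fell by 0.60 in tibialis anterior. Krt8 was also called higher in the 3 limb muscles at a mean level below 0 log2 CPM. Diaphragm had 0 called genes in all 4 of these lists, where 3.27% of all genes were called higher and 4.25% lower.

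Markers of other cells moved with age beside these results, and their part was not tested. Summed levels here are CPM of the library total without TMM scaling, while calls come from the TMM-scaled fits. Of all genes, 15.1% were called higher and 7.76% lower in gastrocnemius, and 17.2% and 10.4% in tibialis anterior. In soleus these shares were 9.21% and 5.78%, and in diaphragm 3.27% and 4.25%. All 5 macrophage markers were called higher in gastrocnemius and in tibialis anterior and 1 of 5 in soleus, and their summed level went from 57.7 to 93.5 CPM (median 71.2) at 6 months to 115 to 230.3 (median 173) at 27 months in gastrocnemius, and from 28 to 44.3 (median 36.6) to 61.5 to 164 (median 127) in tibialis anterior. In soleus it went from 116 to 196 (median 159) to 204 to 307 (median 239.7), and in diaphragm, with 0 of 5 called, from 95.4 to 174 (median 142) to 146 to 235 (median 173). All 4 adipocyte markers were called higher in each limb muscle, with medians from 7.61 to 41.8 CPM in tibialis anterior and from 11 to 38.2 in gastrocnemius. Of 6 muscle fibre genes, 3 were called lower in tibialis anterior and 2 in gastrocnemius. In soleus 2 of them and in diaphragm 1 were called higher, while in soleus 3 passed as lower by the adjusted p alone. Their summed medians in tibialis anterior and gastrocnemius went from 174354 to 138918 and from 166749 to 141988 CPM. The summed median went from 102167 to 86672 in soleus and from 114100 to 121477 in diaphragm. In diaphragm 4 of 6 fibroblast markers were called lower, with a summed median from 2757 to 1375 CPM, and 2 of 6 were called lower in gastrocnemius and in soleus. Of 8 endothelial markers 1 was called lower in each limb muscle. Of 4 satellite cell markers 2 were called higher in each limb muscle and 1 lower in tibialis anterior, and of 4 smooth muscle markers 2 were called higher in gastrocnemius and in tibialis anterior. Of 6 Schwann cell markers 1 was called higher and 2 lower in gastrocnemius, 1 higher in soleus and 2 higher in tibialis anterior. The T cell markers, at summed medians of 0.503 to 3.21 CPM, had 2 called higher in diaphragm, 1 in gastrocnemius, 1 in soleus and 2 in tibialis anterior, of 4, 2, 2 and 2 tested. No marker gene was at 0 in either age group.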

How the data were processed

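Total RNA of each muscle was sequenced as strand-specific paired reads after removal of ribosomal RNA. Per the study's methods, the authors aligned and counted reads with ArrayStudio (version not stated) against a rat B6.0 reference with a RefSeq gene model, and deposited 1 table of raw counts per library. The counts were used as deposited. Each library lists 17870 gene lines. Groups came from the muscle and age in the labels. No library pair had identical values. The labels do not say which libraries share an animal, so p-values measure the spread between these libraries.

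Genes were filtered per muscle with filterByExpr (minimum count 10, minimum total count 15), scaled by TMM and fitted with limma-voom (limma 3.58.1, edgeR 4.0.16, R 4.3.3), each age against 6 months, with Benjamini-Hochberg adjustment over all genes of the fit. A joint fit of 28 groups (12784 genes) gave the differences between muscles. Levels are log2 CPM of TMM-scaled libraries with a prior count of 0.5, while fibre marker values and marker sums are CPM of the total count. Trends were chosen by BIC among no trend, a line and a logistic curve, with a gap of 6 for a trend and 2 for logistic over linear. An inflection before month 12 was called early and one after month 21 late. The procedure was tested on simulated data. Alternatives were edgeR's quasi-likelihood test, DESeq2 1.42.0, total-count scaling, RLE size factors, no filter, quality weights, Bonferroni adjustment, the replicate number as a block, log2 total count as a covariate, and each library of the 6- and 27-month groups left out. The members and all gene lists were chosen with earlier results of these data known. Genes named from the lists were those that rose and fell most per list and muscle among called genes with a mean level above 0 log2 CPM, and other called genes were named after their values were seen. Values of a few genes that this rule or the pattern ranking would name are not reported here.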

Additional observations from a re-analysis of the deposited data

Results flagged for a closer look

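Dixon's check of the highest and lowest library was made in the 18 combinations of member and gastrocnemius group with at most 10 libraries, where chance alone marks about 1 in 20. It marked 3 libraries, the lowest Dmd level at 21 months (5.46 log2 CPM), the highest Sgca level at 6 months (8.05) and the highest Sgca level at 24 months (7.81).

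The change from 6 to 27 months differed between muscles, by the test of the difference itself in the joint limma fit, in 11 comparisons. For Dmd these were gastrocnemius minus diaphragm (1.56), soleus minus diaphragm (0.73), tibialis anterior minus diaphragm (0.77), soleus minus gastrocnemius (-0.83) and tibialis anterior minus gastrocnemius (-0.79). For Sgcb they were tibialis anterior minus diaphragm (-0.60), minus gastrocnemius (-0.75) and minus soleus (-0.76). For Sgcd they were gastrocnemius minus diaphragm (0.63), soleus minus gastrocnemius (-0.61) and tibialis anterior minus gastrocnemius (-0.76). Of the 11, the 7 that involve gastrocnemius cannot be told apart from the separate running-number series of those libraries.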

How the results depend on the processing

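Dmd in soleus and tibialis anterior and Sgcb in tibialis anterior were called under every alternative run, and Dmd in gastrocnemius under all but the leading-axis covariate. The count of members called at 27 months, 4, ran from 3 to 5 over the alternatives and from 4 to 5 with each of 93 libraries left out in turn. The 16 that passed were 7 with Bonferroni adjustment and 9 with the leading-axis covariate, and otherwise 16 to 19 (16 to 17 with a library left out). Before 27 months the 1 call became 2 with edgeR, 2 with DESeq2 and 3 with total-count scaling, and stayed at 1 with any library left out. The 11 called differences in change became 7 with quality weights. The leading-axis covariate, the fit without libraries that stood apart and every alternative to the count before 27 months were chosen after seeing the data. Directions turned as follows, and the cause was not tested. With total-count scaling, gastrocnemius Utrn was 0.21, Sgca 0.0999 and Dag1 0.19, and tibialis anterior Utrn 0.31 and Sgca 0.30. With the leading-axis covariate, diaphragm Dmd was 0.33, Sgca -0.0555 and Sgcd 0.0701, gastrocnemius Sgca 0.12 and tibialis anterior Utrn 0.0131. Tibialis anterior Utrn was 0.0033 with quality weights and 0.00988 without the libraries that stood apart. With 1 library left out, diaphragm Dmd ran from -0.13 to 0.00256, tibialis anterior Sgca from -0.0351 to 0.00429 and Utrn from -0.0255 to 0.00737. Same-numbered libraries of different muscles correlated at 0.06 to 0.18 on average after removing group means, with a lowest pair at -0.62. Other-numbered libraries averaged -0.016 to -0.0056. Between soleus and tibialis anterior 43 of 84 libraries correlated best with their own number. This was 42 of 83 between diaphragm and tibialis anterior, 37 of 83 between diaphragm and soleus, but 13 of 72 between diaphragm and gastrocnemius. The numbers were not taken as pairing, and whether some mark shared animals was not tested. With the replicate number as a block the counts were 4 called and 16 passed, 11 differences in change and 12 in level, and no call changed.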
